A study of Homo sapiens with 2 samples.

Results

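The terminal band of the short arm of chromosome 19, cytogenetic band 19p13.3, was the chromosome end with the most TET1 peaks per Mb. Its members were chosen by position and measured peak density: all peaks of a V5 ChIP whose midpoint lay in the first 5 Mb of the chromosome on hg19, without a stretch of 0.11 Mb around UHRF1 that begins at 4880001. The rule took 627 of 46207 peaks on the human chromosomes, and 627 of 3155 on chromosome 19. The cells were human cardiac progenitors made from H1, an established embryonic stem cell line, and the design text says that TET1 was tagged with the V5 epitope at its own locus. The 2 libraries, 1 V5 ChIP and 1 input, come from day 7 of differentiation with the same doses and days. The labels do not say whether they came from the same culture. CHIR99021, which activates WNT signalling, was given at 6 µM and withdrawn on day 2, and IWP2, which blocks it, was given at 5 µM from day 3 to day 5. Both carry a wild-type genotype entry, which does not name the tag, and their extraction text describes a genomic DNA kit. Without a V5 ChIP from cells lacking the tag, TET1 binding and other signal of the antibody cannot be told apart, and no value here has a replicate.

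TET1 is a dioxygenase that oxidises 5-methylcytosine, the first step of active DNA demethylation. Its CXXC domain binds DNA rich in CpG, the dinucleotide that carries methylation, and TET1 is known from embryonic stem cells to sit at CpG-rich promoters. The end of 19p is known as a gene-rich and GC-rich part of the genome, with housekeeping, signalling and transcription factor genes packed close together.

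The promoters of 6 genes that lie at the stretches described below are shown for their CpG content. They are the 250 bases before the annotated gene start, taken from RefSeq (GRCh38.p14), 5′ to 3′ on the strand of the gene, with every CG in capitals. PTBP1 and MED16 bound the fullest stretch, MIDN and CIRBP lie in the most covered stretch, and OR4F17 and ZNF556 lie in the stretches with fewest peaks. The positions are on GRCh38.p14 and were not laid over the peaks, which are on hg19.

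PTBP1 (chr19:797202-797451, plus strand): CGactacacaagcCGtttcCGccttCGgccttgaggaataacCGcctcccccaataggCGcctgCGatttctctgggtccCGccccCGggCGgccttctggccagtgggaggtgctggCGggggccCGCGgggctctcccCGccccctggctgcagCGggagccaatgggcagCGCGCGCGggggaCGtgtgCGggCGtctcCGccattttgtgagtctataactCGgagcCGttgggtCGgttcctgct
MED16 (chr19:893188-893437, minus strand): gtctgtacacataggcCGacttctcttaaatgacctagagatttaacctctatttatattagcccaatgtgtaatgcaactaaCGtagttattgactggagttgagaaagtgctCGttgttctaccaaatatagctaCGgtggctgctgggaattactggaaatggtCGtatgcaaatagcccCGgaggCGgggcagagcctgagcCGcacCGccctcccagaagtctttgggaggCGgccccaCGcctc
MIDN (chr19:1248333-1248582, plus strand): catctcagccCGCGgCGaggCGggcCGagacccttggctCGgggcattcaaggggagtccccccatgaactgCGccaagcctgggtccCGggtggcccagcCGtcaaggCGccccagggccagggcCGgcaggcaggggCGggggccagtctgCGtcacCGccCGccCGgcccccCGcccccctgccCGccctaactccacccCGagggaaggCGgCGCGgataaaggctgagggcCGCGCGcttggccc
CIRBP (chr19:1269082-1269331, plus strand): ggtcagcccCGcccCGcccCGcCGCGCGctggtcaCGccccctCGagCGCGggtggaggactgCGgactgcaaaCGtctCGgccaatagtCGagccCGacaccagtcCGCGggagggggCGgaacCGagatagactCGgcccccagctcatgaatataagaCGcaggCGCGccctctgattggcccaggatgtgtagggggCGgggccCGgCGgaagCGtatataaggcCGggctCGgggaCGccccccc
OR4F17 (chr19:106854-107103, plus strand): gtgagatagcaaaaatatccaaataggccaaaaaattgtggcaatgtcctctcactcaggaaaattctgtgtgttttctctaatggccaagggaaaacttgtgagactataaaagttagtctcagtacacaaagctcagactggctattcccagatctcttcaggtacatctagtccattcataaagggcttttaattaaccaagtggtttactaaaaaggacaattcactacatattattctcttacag
ZNF556 (chr19:2867085-2867334, plus strand): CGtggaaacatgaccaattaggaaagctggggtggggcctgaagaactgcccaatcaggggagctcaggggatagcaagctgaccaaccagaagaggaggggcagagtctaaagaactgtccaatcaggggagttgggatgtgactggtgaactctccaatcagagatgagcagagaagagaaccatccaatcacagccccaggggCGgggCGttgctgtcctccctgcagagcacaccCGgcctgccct

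The CIRBP promoter holds 30 CG in 250 bases, PTBP1 26 and MIDN 25, all above the median of 17 over 15843 protein-coding promoters of this length. MED16 holds 11. The ZNF556 promoter holds 4, and that of OR4F17, an olfactory receptor gene, holds 0. These 2 do not stand for the stretches with few peaks: in the step of ZNF556, ZNF554 holds 26 and ZNF555 20, and at other such steps PLPP2 holds 32, GNG7 36 and CELF5 38. The median over 21 genes at the emptiest steps was 25, and over 37 genes at the fullest steps 26.

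Gene names in the text below come from general knowledge of the order of genes on the chromosome, at the coarseness of a 100 kb step. All 74 names assigned to a stretch were found in the RefSeq gene table, and their order there was the order of the stretches. No annotation of hg19 was used, so a name says which genes share a stretch with the peaks, and no peak was assigned to a gene or a gene part. The labelled cell type could not be checked, since the data are peaks and not expression.

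The band held 128 peaks per Mb (exact 95% Poisson interval 118 to 139), the highest of 41 chromosome ends. The next ends were the long arm of 16 with 109 per Mb (100 to 119), the long arm of 9 with 109 (99.8 to 118), the short arm of 16 with 104 (95.6 to 114) and the long arm of 17 with 104 (95.4 to 114). The rest of chromosome 19 had 2518 peaks, or 50.2 per Mb over 50.1 Mb. The band was therefore 2.55 times as dense (2.33 to 2.79), and with 8.88% of the occupied length it carried 19.9% of the peaks of the chromosome. It was chosen for this density, so the numbers describe it and no test is given. All intervals cover counting error only, and neighbouring peaks are not independent.

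**Figure D1:**
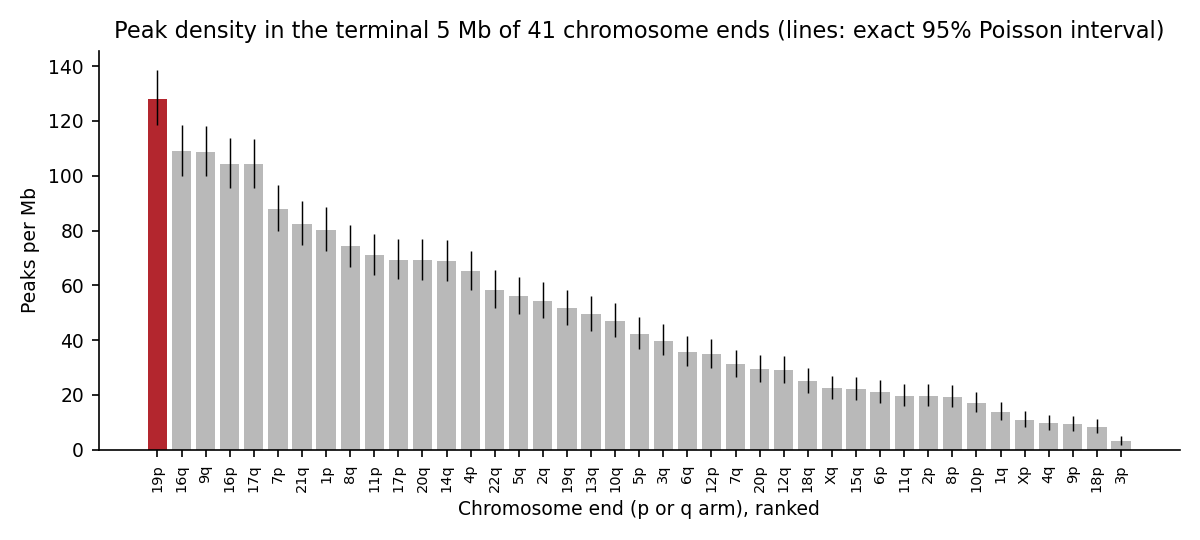
Peaks per Mb (vertical axis) in the terminal 5 Mb of 41 chromosome ends, ranked, with exact 95% Poisson intervals as thin lines. The short arm of 19, in red and measured over 4.89 Mb, stands at 128 per Mb, and the lowest end, the short arm of 3, at 3.20.

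Covered length set the band further apart from the other dense ends than peak number did. Peaks covered 1597 kb, or 32.7% of its bases. At the other dense ends the covered share was 22.2% for the long arm of 16, 25.4% for the long arm of 9, 25.6% for the short arm of 16 and 22.95% for the long arm of 17. In the rest of chromosome 19 it was 10.9%. The median peak in the band was 1708 bp wide (quartiles 1157.5 and 3196 bp, range 491 to 17344 bp). The median elsewhere on the chromosome was 1749.5 bp, and the upper quartile there was 2665 bp. The difference was thus in the wide tail: 68 of 627 peaks (10.8%, Wilson interval 8.65% to 13.5%) were 5 kb or wider, against 4.61% (3.86% to 5.50%) in the rest of the chromosome and 3.20% of all peaks in the list. The 4 other ends had 5.32% to 8.05%. The intervals at the long arm of 9 (5.92% to 10.5%), the short arm of 16 (6.01% to 10.7%) and the long arm of 17 (5.69% to 10.3%) overlap that of the band. That at the long arm of 16 (3.73% to 7.54%) does not.

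The excess over the rest of the chromosome was largest among peaks at the top score, and below that score it did not rise steadily with score. Scores were deposited by the authors without a unit and start at 50, and peaks at 3100 or more are here called ceiling peaks, since 3100 is a value most of them share. The band held 48 ceiling peaks, of which 47 stood at exactly 3100 and 1 above it. That is 7.66% of its peaks (5.82% to 10%), against 3.69% (3.02% to 4.50%) in the rest of chromosome 19 and 4.69% over the whole list. The other 4 ends had 3.30% to 5.17%. The intervals at the long arm of 9 (2.69% to 6.05%), the short arm of 16 (3.58% to 7.42%) and the long arm of 17 (3.43% to 7.21%) overlap that of the band. That at the long arm of 16 (2.10% to 5.16%) does not. Ceiling peaks were 5.29 times as dense in the band as in the rest of the chromosome (exact interval 3.65 to 7.57). For the other classes the fold was 2.54 (2.14 to 3.00) below 100, 2.91 (2.47 to 3.41) from 100 to 300, 1.87 (1.53 to 2.27) from 300 to 1000, and 2.45 (1.90 to 3.13) from 1000 up to the ceiling. The interval of the ceiling class does not overlap the others, but the intervals treat neighbouring peaks as independent, and the difference between classes was not tested. The share of weak peaks was close to that elsewhere on the chromosome: 28.1% of band peaks scored under 100, as did 28.2% in the rest of the chromosome and 32.9% of the list. Peaks that scored 1000 or more made up 20.6% of the band, 17.2% of the rest of the chromosome and 18.6% of the list. At the short arm of 16 this share was 22.2%, above that of the band. At the long arms of 16, 9 and 17 it was 12.7%, 16.4% and 16.7%.

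**Figure D2:**
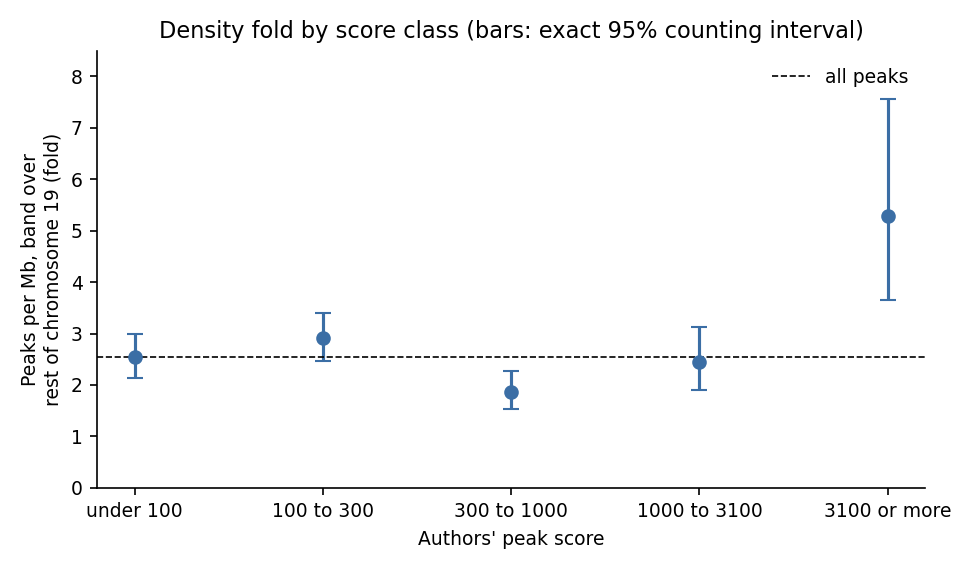
Peaks per Mb in the band over the rest of chromosome 19 (vertical axis, fold) for 5 classes of the authors' score, with exact 95% counting intervals. The ceiling class stands at 5.29, and the other 4 classes lie between 1.87 and 2.91 around the dashed line for all peaks at 2.55.

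Within classes of score, median widths were close for scores below 300, and those of stronger peaks were higher in the band. Each class spans a range of scores, or is capped at the ceiling, and scores were not matched within it. Medians were 1021 against 1001 bp below a score of 100 and 1517 against 1516 bp from 100 to 300. From 300 to 1000 they were 2757.5 against 2351 bp, and from 1000 to the ceiling 4062 against 3466 bp. Ceiling peaks had a median width of 6904 bp in the band (range 3152 to 17344 bp) and 5165 bp in the rest. Width and score come from the same peak call, and the spread of these medians over libraries is unknown.

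Peak number, covered length and ceiling peaks were highest in the first 2 Mb, although the 3 steps of 100 kb at the tip held only 7, 2 and 7 peaks. The first peak of the chromosome starts at 60226. How much of the first step is readable sequence in hg19 was not checked, so its count may understate its density. The first Mb held 144 peaks (exact 95% Poisson interval 121 to 170) and the second 159 (135 to 186). The third held 119, the fourth 111, and the last 0.89 Mb 94, or 106 per Mb (85.4 to 129). The intervals of the second and the last Mb do not overlap, those of the first and the last do. They treat neighbouring peaks as independent, and differences between blocks were not tested. Peaks covered 38.6% of the first Mb, 49.7% of the second, 28.2% of the third, 24.6% of the fourth and 20.8% of the rest. Ceiling peaks numbered 15, 15, 8, 7 and 3 in the same order. Their share was 10.4% (6.42% to 16.5%) in the first Mb and 3.19% (1.09% to 8.97%) in the last, and these intervals overlap. Of the 48 ceiling peaks, 38 were among the 378 peaks of the 25 steps before 2.5 Mb (10.05%), and 10 among the 239 of the 23 full steps after it (4.18%). Ceiling peaks lay a median of 46.3 kb apart, against 210.5 kb in the rest of the chromosome. Their longest interval in the band, 579.5 kb from 2480638 to 3060126, held 55 weaker peaks. It runs through the stretch of GNG7, a G protein gamma subunit, and of the zinc finger genes ZNF554 to ZNF77.

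In steps of 100 kb, 48 steps lay wholly in the band. Each held at least 2 peaks, the median was 12 (quartiles 9 and 17) and the highest 26. Peaks covered a median of 28.9 kb of a step, with a range from 3.24 to 84.4 kb. Over these 48 steps peak number and covered length were correlated (Pearson's r = 0.778, Spearman's rho = 0.872), as a description of neighbouring stretches of 1 library. Peak number and median score did not run together (Pearson's r = -0.115, Spearman's rho = -0.155). Steps with more peaks tended to hold more ceiling peaks (Pearson's r = 0.407, Spearman's rho = 0.54). They also tended to hold more peaks that scored under 100 (Pearson's r = 0.652, Spearman's rho = 0.584). Both classes are part of the peak number, so a positive correlation is partly built in.

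**Figure D3:**
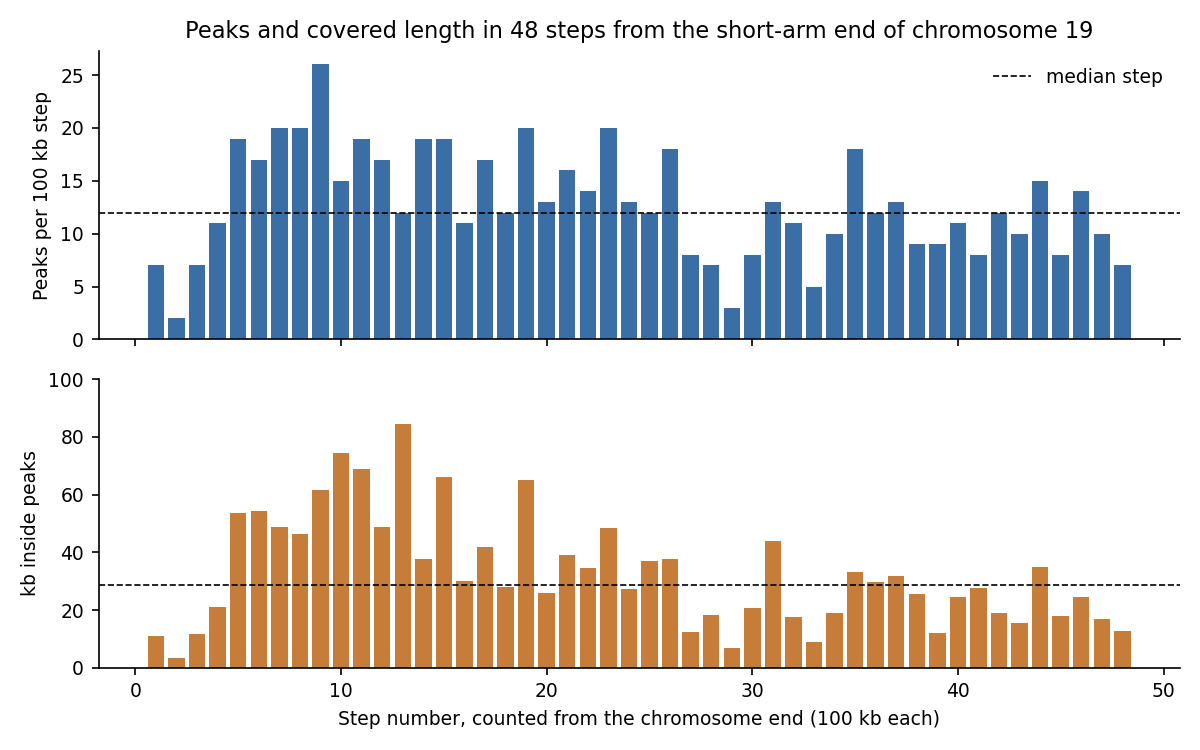
Number of peaks (upper panel) and kb inside peaks (lower panel) in 48 steps of 100 kb, numbered from the chromosome end, with dashed lines at the median step. Step 9 has most peaks, 26, while step 13 has 12 peaks and the most covered length, 84.4 kb.

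The fullest step ran from 800001 to 900000 and held 26 peaks. It is the stretch of 7 neighbouring genes from PTBP1, a repressor of exon inclusion in splicing, to MED16, a subunit of the Mediator complex that links transcription factors to RNA polymerase II. Between them lie PLPPR3, the neutrophil granule genes AZU1, PRTN3 and ELANE, and CFD, which encodes complement factor D. The peaks covered 61.7 kb of this step. The median width was 1601 bp and the median score 146, against 1708 bp and 201 over the band. Of the 26 peaks, 9 scored under 100, as did 28.1% of band peaks and 32.9% of the list. A peak of 12335 bp from 794660 to 806994 and one of 4679 bp from 819784 to 824462 stood at the ceiling. The next strongest were neighbours 140 bp apart, from 859517 to 866268 (6752 bp, score 1031.82) and from 866409 to 874386 (7978 bp, score 1699.49). Between 827184 and 857782 came 11 peaks of 906 to 2424 bp, of which the strongest scored 951.5 and the weakest 65.3. Gaps within the step were short, with a median of 1098 bp and a longest gap of 4690 bp. Joined across gaps of up to 1 kb, the 26 peaks became 14.

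The step from 1200001 to 1300000 had a different build. It holds 12 peaks, the median number, yet they covered 84.4 kb, the most of any step, and their median score of 2013 was the highest. The genes of this stretch are STK11, the kinase LKB1 that activates AMPK, CBARP, ATP5F1D, a subunit of mitochondrial ATP synthase, MIDN, a nuclear protein that brings proteins to the proteasome, CIRBP, a cold-inducible RNA-binding protein, FAM174C and EFNA2, an ephrin ligand. The step opens with a ceiling peak from 1204495 to 1212468 (7974 bp). It goes on with peaks from 1213364 to 1215679 (2316 bp, score 369), from 1217316 to 1223903 (6588 bp, 1206.12) and from 1226351 to 1228646 (2296 bp, 227). Next comes the longest run of the band, where a run is 2 or more peaks with gaps of up to 1 kb.

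That run reached from 1229788 to 1292659 and measured 62872 bp, of which 97.1% lay inside its 6 peaks. The first 2 peaks, 17344 and 16774 bp wide, were the widest of the band, and only 3 bp separated them. The next peak, from 1264145 to 1272414 (8270 bp), followed after 236 bp. These 3 stood at the ceiling. A peak of 5717 bp scored 2819.83, one of 2362 bp scored 241, and the last, from 1282072 to 1292659 (10588 bp), was again at the ceiling. All gaps in the run summed to 1817 bp. With gaps of up to 500 bp the longest run was 42627 bp, and with gaps of up to 2 kb it was 70943 bp.

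**Figure D4:**
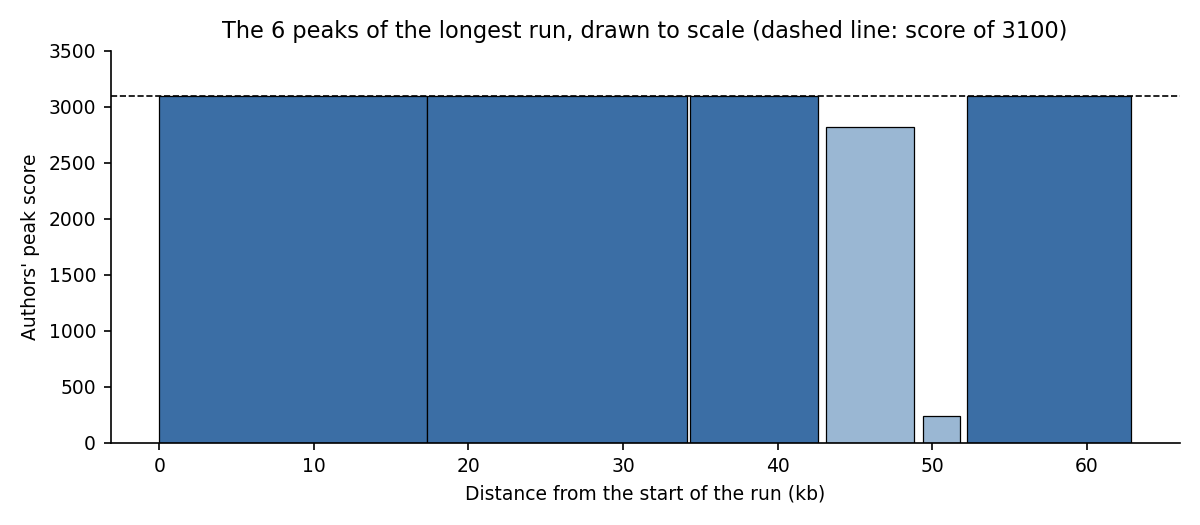
The 6 peaks of the longest run drawn to scale, with distance from its start in kb (horizontal axis) and the authors' score (vertical axis). Darker blocks are the 4 peaks at 3100, and the 2 lighter ones scored 2819.83 and 241.

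The step from 900001 to 1000000 came second in covered length, with 74.4 kb in 15 peaks, and none of the 15 scored under 100. It is the stretch of R3HDM4, KISS1R, the kisspeptin receptor gene, ARID3A, a DNA-binding protein with an AT-rich interaction domain, and WDR18. Of its peaks, 5 were at the ceiling, and one of these, from 978302 to 985884 (7583 bp), was the member above 3100, with 3186.67. It holds 2 long runs. One ran from 915990 to 935906 (19917 bp) in 3 peaks that scored 1860.82 or more. The other, from 939160 to 964115 (24956 bp), held 6 peaks, of which 4 narrower ones with scores from 280 to 478 preceded 2 ceiling peaks of 7424 and 5600 bp.

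Steps with 19 or 20 peaks differed as much in build. The 9 steps with 19 or more held 182 peaks and 14 of the 48 ceiling peaks. That is a ceiling share of 7.69%, close to the 7.66% of the whole band. From 1400001 to 1500000, at GAMT, a creatine synthesis enzyme, RPS15, a ribosomal protein, DAZAP1 and APC2, 19 peaks had a median score of 797 and covered 66.2 kb. From 1000001 to 1100000, at GRIN3B, CNN2, the lipid transporter ABCA7 and POLR2E, a subunit shared by the nuclear RNA polymerases, 19 peaks had a median score of 506 and covered 68.7 kb. From 1300001 to 1400000, at PWWP3A and NDUFS7, a subunit of respiratory complex I, 19 peaks had a median score of 109, none at the ceiling, and covered 37.7 kb. The step from 600001 to 700000 holds POLRMT, the mitochondrial RNA polymerase, FGF22 and RNF126. It had 20 peaks with a median score of 113, and 9 of the 20 scored under 100. A similar count, 20, was found from 700001 to 800000 at PALM and MISP (median score 128) and from 2200001 to 2300000 at SF3A2, a splicing factor, AMH, the anti-Müllerian hormone, and OAZ1 (median score 124).

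The step from 1800001 to 1900000 also held 20 peaks, in the stretch of REXO1, KLF16, a zinc finger transcription factor, and ABHD17A. Its widest peak, from 1850621 to 1866076, was the third widest of the band with 15456 bp and stood at the ceiling. That peak closed a run of 21878 bp that began at 1844199, and the next run, 18711 bp in 4 peaks, started at 1870290. The KLF16 promoter holds 45 CG in 250 bases, more than 99.3% of protein-coding promoters. It is the highest of the 37 matched genes at the fullest steps, whose median of 26 was close to the 25 at the emptiest.

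All 9 peaks of 10 kb or more stood at the ceiling. Besides the 3 of the longest run, the peak at the stretch of REXO1 and KLF16 and that at the start of the fullest step, they were the peak from 2162773 to 2174794 (12022 bp), in the stretch of DOT1L, the histone H3 lysine methyltransferase, and that from 4057782 to 4068968 (11187 bp). The last 2 lay nearer the tip, from 403104 to 414104 (11001 bp), in the stretch of C2CD4C, and from 655092 to 665925 (10834 bp), in the stretch of RNF126, a ubiquitin ligase. The widest peak below the ceiling, from 1488062 to 1497706, measured 9645 bp and scored 1596.88. Peaks of this width made up 1.44% of the band (Wilson interval 0.757% to 2.71%), 0.318% of the rest of chromosome 19 and 0.29% of the list. The long arms of 9 and 17 and the short arm of 16 each had 8 in 5 Mb (1.47% to 1.54%), and the long arm of 16 had 2, so such peaks were about as frequent at 3 of the 4 other dense ends.

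Between the fullest and the emptiest steps, ceiling peaks were spread singly or in small groups. The step from 500001 to 600000, with the ubiquitin-conjugating enzyme gene CDC34 and BSG, which encodes basigin, had 17 peaks over 54.3 kb and 2 at the ceiling. The step from 1600001 to 1700000, at TCF3, which encodes the E proteins E12 and E47, had 17 peaks over 41.9 kb and 1 at the ceiling. From 2400001 to 2500000, at TIMM13, LMNB2, the gene of lamin B2, and GADD45B, a stress-response gene, 3 of 12 peaks were at the ceiling. From 3000001 to 3100000, at the Groucho-family corepressor genes TLE2 and TLE5 and at GNA11, a Gq-class G protein gene, 13 peaks covered 44.07 kb, and 6 of the 13 scored 1000 or more, 2 of them at the ceiling. By contrast, the step from 3400001 to 3500000, at NFIC, a nuclear factor I gene, held 18 peaks of which none was at the ceiling, with a median score of 135. In all, 21 of the 48 steps had no ceiling peak.

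No full step was without a peak, and the emptiest lay near the tip and around 3 Mb. From 100001 to 200000, the stretch of OR4F17, only 2 peaks were found, of 910 bp (score 51.7) and 3193 bp (score 278), both after position 192892. The widest peak-free gap of the band, 114.8 kb from 78044 to 192892, lies there, and the next, 60.8 kb from 205836 to 266650, follows it. Whether reads can be placed in these gaps in hg19 was not checked, so a lack of peaks there may not be a lack of signal. The tip before the widest gap was not empty: 7 peaks lay from 60226 on, and one of them was at the ceiling. From 2800001 to 2900000, the stretch of ZNF554, ZNF555 and ZNF556, there were 3 peaks over 6.88 kb. These few included strong ones: the peak from 2839826 to 2843286 (3461 bp) scored 2755.71 and that from 2819232 to 2821150 scored 1035.32. A gap of 56.3 kb from 2843287 to 2899567 came after them, and one of 41.7 kb from 2901851 to 2943515, at ZNF57 and ZNF77. From 3200001 to 3300000, the stretch of CELF5, an RNA-binding splicing regulator, 5 peaks covered 8.99 kb and none scored over 664.

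The 11 steps with 8 peaks or fewer held 70 peaks and 2 ceiling peaks (2.86%, against 7.66% of the band). With only 2 ceiling peaks this share is imprecise, and the difference was not tested. One of these 2 was the peak at the tip. The other, from 4057782 to 4068968, was the sixth widest of the band with 11187 bp, in a step with 8 peaks in the stretch of PIAS4, ZBTB7A, a repressor of the POZ zinc finger class, and MAP2K2, the kinase MEK2. Few peaks in a step therefore did not mean that all were weak. The step from 2600001 to 2700000, in the stretch of GNG7, had 8 peaks and no score above 482. The step of SLC39A3, SGTA and THOP1 after it had 7 with a highest score of 2677.94. The step before it, from 2500001 to 2600000, held 18. A gene may reach past the step it is named for, so these counts are not counts for GNG7. Near the far end, 7 peaks from 4700001 to 4800000, the stretch of DPP9 and FEM1A, had gaps with a median of 12007 bp and none formed a run.

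Close spacing was general. The median gap between neighbours was 2489.5 bp (quartiles 755 and 5881 bp), against 6733 bp in the rest of the chromosome and 2621 to 3065 bp at the 4 other dense ends. Gaps of up to 1 kb numbered 179 and the shortest was 1 bp. Only 27 gaps exceeded 20 kb, and 23 peaks (3.67%, 2.46% to 5.44%) had their nearest neighbour over 10 kb away. At the 4 other dense ends that share was 5.51% to 9.60%, in the rest of the chromosome 21.4%, and over the whole list 39.4%.

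**Figure D5:**
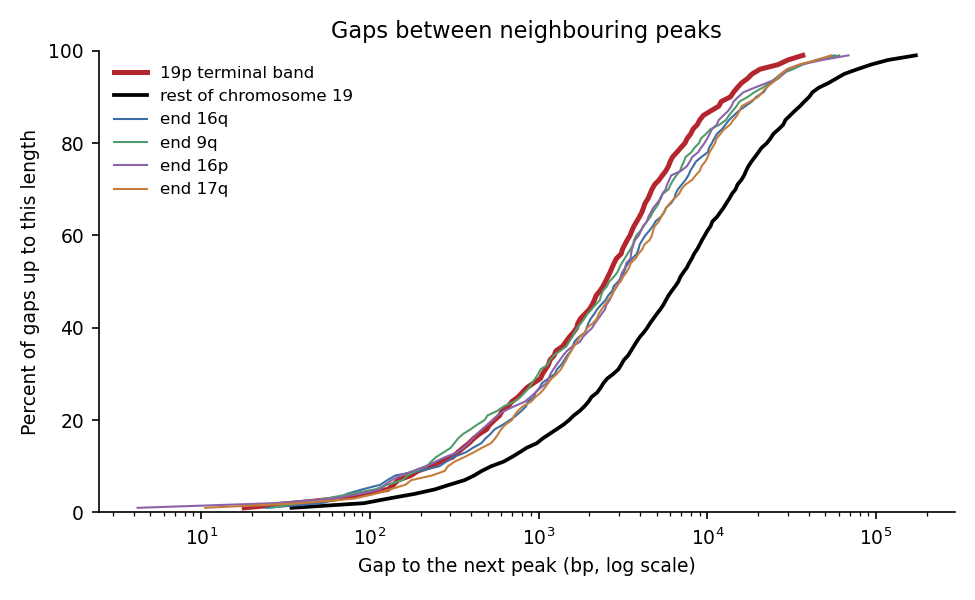
Percent of gaps between neighbouring peaks (vertical axis) up to a given length in bp (horizontal axis, log scale) for the band, the rest of chromosome 19 and the 4 next densest chromosome ends. The median of the band is 2489.5 bp and that of the rest of the chromosome 6733 bp, and the other ends lie close to the band.

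Runs took in 303 of the 627 peaks, 48.3% (44.4% to 52.2%), against 27.01% (25.3% to 28.8%) in the rest of the chromosome and 21.0% of the list. The 4 other ends had 42.0% to 49.8%, so this share was not particular to the band. There were 124 runs with a median length of 6018.5 bp. Of these, 86 were pairs, 29 had 3 peaks, 5 had 4, and 4 were longer. In 105 of the 124 runs the widest peak also had the highest score. Width and score come from the same peak call, and this count was not made outside the band, so it is not a trait of the band. The run with most peaks, 7, reached from 1488062 to 1514570 (26509 bp), in the stretch of PCSK4, REEP6 and ADAMTSL5. It had no ceiling peak: its scores ran from 83.3 to 1596.88, and it was the second longest run of the band.

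The edges of the band were not marked by strong peaks. The last member lay from 4877432 to 4879221 (1790 bp, score 173), and the first peak past 5 Mb from 5011452 to 5012591 (1140 bp, score 130). The stretch left out holds 10 peaks, of which 2 were at the ceiling, and 6 scored under 100.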

How the data were processed

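One deposited file was used, a headerless peak list of 5 columns for the ChIP library set against input. Per the submitters' processing notes, reads were aligned with BWA 0.7.17 to hg19. Per the peak names in the deposited list the authors called peaks with MACS, whose version is not stated in the sources used here. The authors' deposited score has no stated unit and was used only to describe and rank peaks in this list. Read depth is unknown.

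Peak widths, gaps, runs (gaps of up to 1 kb), 100 kb steps and covered bases were computed in Python (version 3.11.15) with scipy 1.17.1, numpy 2.4.6 and pandas 2.3.3, and the functions were tested on simulated peaks. Positions are counted from 1. The rest of chromosome 19 runs from 5 Mb to its last peak, without peak-free intervals over 1 Mb, and long-arm ends were measured back from the last peak. Intervals are exact Poisson for densities, exact binomial for folds and Wilson for shares. With 1 library per group there is no test. Promoter sequences and gene order came from RefSeq tables of GRCh38.p14, and the share of genes with a peak at their start was not computed, since no hg19 annotation was used. The genes named are those at the fullest, most covered and emptiest steps, the longest runs, and the widest peaks and gaps, with 8 fullest and 8 emptiest steps asked for and ties kept. REEP6, ADAMTSL5 and the genes of steps with 17 or 18 peaks or with 2 or more ceiling peaks between the fullest and emptiest were named after their values were seen. The members, lists and rules were chosen with earlier results of these data known.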

Additional observations from a re-analysis of the deposited data

How the results depend on the processing

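For 10 results, 39 values were recomputed under other settings. Numbers, covered share and run length were held to 1.5 times, and the other results to their 95% counting interval. By this measure 20 moved and 19 did not. Raising the score threshold changes number, width and gaps by construction. Among peaks above the median score of the list the band held 337 peaks, with a median width of 2986 bp, 14.2% at the ceiling, a fullest step of 15, a median gap of 5470.5 bp and 33.5% of peaks in runs. In the top 25% by score these were 170 peaks over 17.8% of the band, 4277.5 bp, 28.2%, 10 and 12856 bp, and 3 steps had no peak. Joining peaks up to 1 kb apart gave a density fold of 2.15, a median width of 2061 bp, a fullest step of 15 and a median gap of 3961 bp. The fold ran from 2.15 to 2.82 over the alternatives. They reuse the peaks of a band chosen for its density, so a fold above 1 was built in. The value of 2.82 is for the first 2 Mb alone. It was set against all of chromosome 19 past 2 Mb, with the remainder of the band and the stretch left out included, so it is not on the same footing as 2.55. Runs held 33.2% of peaks with gaps of up to 500 bp and 67.3% with gaps of up to 2 kb. The share of genes with a peak at the start was not run. No paired analysis was possible because both groups consist of a single library. Depth, replicate spread and signal in untagged cells are not known here.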

Other observations

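The CpG content of promoters was close in the stretches with most and with fewest peaks, a difference that was not tested. Of 42 genes named at the 9 fullest steps, 37 had a promoter in the RefSeq table, with a median of 26 CG in 250 bases, and 89.2% held 10 or more. Of 21 genes at the emptiest steps all 21 had one, with a median of 25, and 85.7% held 10 or more. Over all protein-coding genes the median was 17 and the share 68.6%. For the genes of the 2 most covered steps, 8 of 11 were matched, with 25 to 37 CG each. These are counts of the letters CG in a window before the gene start, whose strand does not matter, and they say nothing about binding.

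The same count was made for 8 role lists of genes of the band, and differences between lists were not tested. The median was 32 CG for kinases and phosphatases (6 matched genes) and for receptors, ligands and G proteins (12), 31 for mitochondrial respiration (5), 30.5 for chromatin and DNA methylation readers (6), 29.5 for RNA polymerase and RNA processing (14) and 22.5 for transcription factors and cofactors (18). It was 17 for the lipid droplet coat (3) and 9 for neutrophil granule genes (4 of 6 matched). Among the latter AZU1 held 7, PRTN3 6 and CFD 11, and these 3 lie in the fullest step, between PTBP1 and MED16.

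Some weak peaks flanked strong ones. In the band 18 of 176 peaks that scored under 100 (10.2%, Wilson interval 6.57% to 15.6%) lay within 1 kb of a neighbour that scored 1000 or more. In the rest of chromosome 19 the share was 3.94% (2.74% to 5.63%), and at the 4 other ends it ran from 6.15% to 15.5%. Of the 124 runs in the band, 6 were made of peaks under 100 alone.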
